A study of Homo sapiens with 16 samples.

Results

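The cyclin-dependent kinase (CDK) inhibitors are the 3 CIP/KIP genes CDKN1A, CDKN1B and CDKN1C and the 4 INK4 genes CDKN2A, CDKN2B, CDKN2C and CDKN2D. They were taken by symbol and matched to their Ensembl identifiers, which gave 7 of the 60676 genes in the count tables. All 7 were among the 19247 genes that passed the low-count filter, but CDKN1C, CDKN2A and CDKN2B passed through MeWo alone, so the counts over the members below describe them and support nothing about the family.

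RNA was sequenced from A101D and MeWo, human melanoma cell lines that the labels call methionine dependent and methionine independent, with 8 total RNA libraries from each. Cells were grown, per the growth protocol, either with 200 µM methionine (control) or without methionine and with 200 µM homocysteine, from which cells can remake methionine, and dialyzed serum was used throughout. No label ties a library to a medium, so the libraries are described by line and by replicate number, in the sets 1 to 4 and 5 to 8. What each set shares is not given, and no label says that the libraries came from separate cultures. The p-values therefore measure the spread between libraries, which may be technical. Over all libraries the line was fitted without a term for the set, so that spread takes in the set differences. For CDKN1A the SE between the lines was 0.17 so fitted and 0.03 for the mean of both within-set differences. Each line is 1 established line, so a difference between them is one between these lines and not between dependence and independence of methionine.

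CDKs joined to cyclins drive a cell through division, and the inhibitors hold them back. INK4 proteins bind CDK4 and CDK6 and keep D-type cyclins from them, whereas CIP/KIP proteins bind a wider range of cyclin-CDK complexes, CDK2 complexes among them. With CDK activity low, RB family proteins stay bound to E2F factors and genes for DNA replication stay off. The INK4 genes CDKN2A and CDKN2B lie side by side at 9p21, a stretch often deleted in melanoma.

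Totals ran from 28910881 to 38961862 counts per library. Levels are in CPM, each count relative to the size of its library, with sizes scaled by the trimmed mean of M-values (TMM). The labelled cell type was checked on 12 melanocyte lineage genes, of which all had counts in both lines; summed, they reached between 2871 and 4217 CPM per A101D library and between 10384 and 12109 CPM per MeWo library. The 15 markers of blood, endothelium, epithelium, liver and fibroblasts summed to at most 19.6 CPM per library in the first A101D set and at least 29.4 CPM in the second, and to between 73.7 and 86.1 CPM per MeWo library. In MeWo 1 gene, LUM, a fibroblast marker, held 67.0 to 78.3 CPM of that sum and 12 of the 15 were under 1 CPM, and most of the rise between the A101D sets was VWF, an endothelial marker, at means of 3.80 and 15.6 CPM. By limma (adjusted p under 0.05), 6 of the 12 lineage genes were higher and 5 lower in MeWo, with a median log2 difference of 0.04. Of all genes tested, 38.2% were higher and 40.5% lower. TYRP1 and TYR, enzymes of pigment synthesis, were nearly absent from A101D, at means of 0.901 and 1.52 CPM. Their part in the results below was not tested. In bulk RNA, fewer cells of a kind and less RNA per cell cannot be told apart. MeWo replicate 2 stood apart in its line, with 34471 genes detected where the rest had between 30066 and 31433. No member's call changed without this library. The A101D sets were also apart, with at most 33107 genes detected per library in the first set and at least 34020 in the second. Their TMM factors reached at most 0.9577 in the first set and were at least 1.054 in the second. Other scalings are given below, but the part of genes detected in the A101D set differences was not tested.

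The 250 bases before the start of 4 members are shown because the results turn on these genes: CDKN1A and CDKN2C moved in opposite directions between the A101D sets, and CDKN2A and CDKN2B had no count in A101D. They are from RefSeq (GRCh38.p14), which held 9 starts for 6 of the 7 members. Capitals mark GGGCGG on either strand, the GC box bound by Sp1 and related factors; overlapping matches run together.
CDKN1A, chr6:36678464-36678713, plus strand: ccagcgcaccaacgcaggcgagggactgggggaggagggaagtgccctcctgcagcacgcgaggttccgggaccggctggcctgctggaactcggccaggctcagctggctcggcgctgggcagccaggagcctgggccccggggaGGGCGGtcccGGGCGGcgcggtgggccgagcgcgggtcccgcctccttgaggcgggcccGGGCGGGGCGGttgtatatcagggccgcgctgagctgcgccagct
CDKN2C, chr1:50968456-50968705, plus strand: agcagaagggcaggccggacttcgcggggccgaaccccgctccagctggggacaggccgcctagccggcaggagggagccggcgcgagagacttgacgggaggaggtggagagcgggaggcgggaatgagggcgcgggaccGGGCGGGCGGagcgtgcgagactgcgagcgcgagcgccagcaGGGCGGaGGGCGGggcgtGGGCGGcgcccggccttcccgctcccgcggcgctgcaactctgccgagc
CDKN2B, chr9:22009306-22009555, minus strand: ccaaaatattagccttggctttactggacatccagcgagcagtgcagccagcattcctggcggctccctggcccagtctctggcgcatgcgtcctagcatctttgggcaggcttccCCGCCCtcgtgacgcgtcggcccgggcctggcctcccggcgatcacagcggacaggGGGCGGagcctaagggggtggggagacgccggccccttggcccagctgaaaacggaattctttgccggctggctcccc
CDKN2A, chr9:21974858-21975107, minus strand: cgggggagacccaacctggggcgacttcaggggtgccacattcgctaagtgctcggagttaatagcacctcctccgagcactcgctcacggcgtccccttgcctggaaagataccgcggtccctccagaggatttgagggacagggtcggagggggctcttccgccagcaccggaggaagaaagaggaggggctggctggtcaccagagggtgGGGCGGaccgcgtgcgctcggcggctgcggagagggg
The CDKN2A start shown is the one nearer the 3′ end of the gene, of 2, and the CDKN2C start is the middle one of 3. These windows hold 4 GC boxes in CDKN1A, 5 in CDKN2C, 2 in CDKN2B and 1 in CDKN2A, and 42.6% of all 35116 RefSeq windows of this length hold at least 1. The windows not shown hold 0 and 1 for CDKN2C and 0 for CDKN2A. GC content of those shown is 76.4% for CDKN1A, 77.2% for CDKN2C, 66.4% for CDKN2B and 66.8% for CDKN2A, against a median of 58.0% over all windows; the other CDKN2C windows, at 45.6% and 48.8%, lie below that median. TTTCCCGC and TTTGGCGC, letters of E2F sites, and TATAAA were searched on both strands and are in none of the 9 windows of the members. TTTCCCGC is in 1.39% of all windows, TTTGGCGC in 0.550% and TATAAA in 10.7%.

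CDKN2A and CDKN2B had counts in MeWo and none in A101D, and the other 5 members had counts in both lines. CDKN1A was higher in A101D, CDKN1B, CDKN1C, CDKN2A, CDKN2B and CDKN2D were higher in MeWo, and the direction for CDKN2C depended on the replicate set. By limma, 6 of the 7 members passed an adjusted p of 0.05 between the lines, 5 higher and 1 lower in MeWo, where 78.7% of all genes tested passed, 38.2% higher and 40.5% lower. A101D and MeWo libraries were fully apart for 6 of the 7 members, and for 56.8% of all genes tested. Within replicates 1 to 4 all 7 members passed, 5 higher and 2 lower, beside 81.1% of all genes (37.6% higher and 43.5% lower); within replicates 5 to 8 all 7 passed, 6 higher and 1 lower, beside 85.1% (42.4% and 42.7%).

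**Figure D1:**
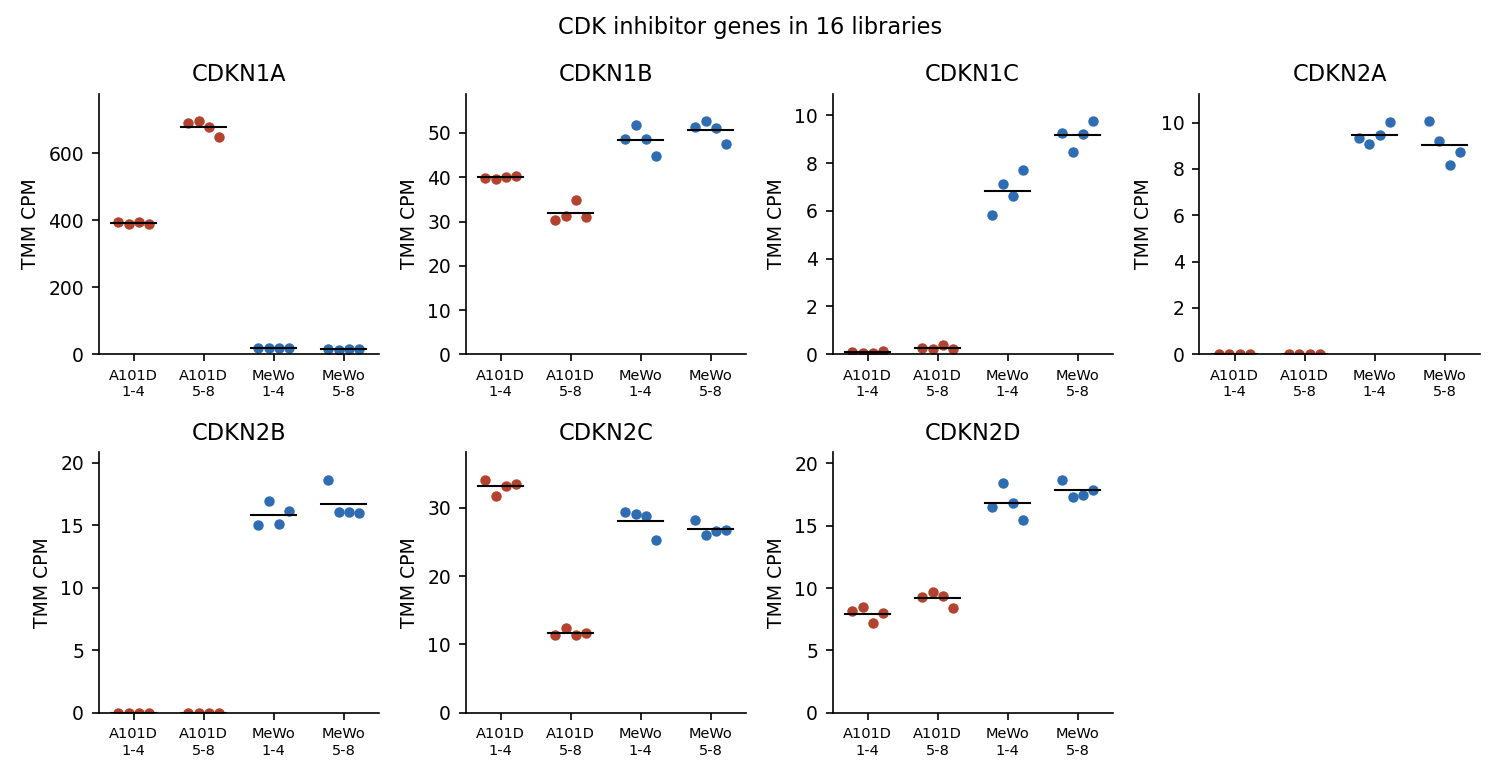
Level of each CDK inhibitor in the 16 libraries, in TMM-scaled CPM on a linear axis from 0, with a different scale for each gene. Points are libraries in order of replicate number, bars are means of 4, red is A101D and blue is MeWo; CDKN1A runs from 388 to 695 CPM in A101D libraries and from 13.5 to 18.6 CPM in MeWo libraries.

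CDKN1A (ENSG00000124762, chromosome 6, 36676460 to 36687339, plus strand, GRCh38) encodes p21, which binds cyclin-CDK complexes and PCNA. In A101D its level was 394, 389, 394 and 388 CPM in replicates 1 to 4 and 689, 695, 679 and 649 CPM in replicates 5 to 8. In MeWo it was 18.6, 18.3, 17.5 and 17.5 CPM in replicates 1 to 4 and 14.7, 13.5, 15.1 and 16.1 CPM in replicates 5 to 8. All A101D libraries were above all MeWo libraries, and within each line the sets did not overlap, with the higher set being 5 to 8 in A101D and 1 to 4 in MeWo. The mean was 32.6-fold higher in A101D than in MeWo, a log2 difference of -4.98 ± 0.17 (SE, n = 8 and 8; limma adjusted p = 1.11e-14). That difference was -4.45 ± 0.05 in replicates 1 to 4 and -5.51 ± 0.05 in replicates 5 to 8. From replicates 1 to 4 to 5 to 8, CDKN1A rose by 0.79 ± 0.04 on the log2 scale in A101D (limma adjusted p = 4.3e-23) and fell by 0.27 ± 0.06 in MeWo (limma adjusted p = 0.00134); without the low-count filter the MeWo value missed the threshold (limma adjusted p = 0.223). DINOL, a noncoding RNA gene that overlaps CDKN1A on the other strand, had 64 and 112 counts in the A101D sets and 6 in MeWo; the strand setting of the counting is not given, so reads of such pairs cannot be told apart.

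CDKN1B (ENSG00000111276, chromosome 12, 12715058 to 12722371, plus strand) encodes p27, which holds cyclin E-CDK2 and is removed through the SKP2 ubiquitin ligase as cells enter S phase. In A101D it was at 39.9, 39.5, 40.1 and 40.4 CPM in replicates 1 to 4 and at 30.4, 31.3, 34.8 and 31.0 CPM in replicates 5 to 8. MeWo had 48.6, 51.9, 48.6 and 44.9 CPM and then at 51.4, 52.6, 51.0 and 47.5 CPM. Every MeWo library was above every A101D library, the A101D sets were apart and the MeWo sets overlapped. CDKN1B was higher in MeWo by 0.48 ± 0.07 on the log2 scale (limma adjusted p = 6.52e-06), by 0.28 ± 0.05 within replicates 1 to 4 and by 0.67 ± 0.05 within replicates 5 to 8. Between the sets it fell by 0.33 ± 0.05 in A101D (limma adjusted p = 2.02e-07), and the MeWo difference of 0.06 had an interval from -0.03 to 0.15 (limma adjusted p = 0.412).

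CDKN1C (ENSG00000129757, chromosome 11, 2883213 to 2885773, minus strand) encodes p57, an imprinted member of the family. In A101D it had 3, 2, 2 and 5 counts in replicates 1 to 4 and 9, 9, 13 and 8 counts in replicates 5 to 8. In MeWo it had 5.82, 7.12, 6.64 and 7.71 CPM and then 9.24, 8.45, 9.22 and 9.74 CPM. The lines did not overlap, and in each line replicates 5 to 8 lay above replicates 1 to 4. Over the lines 2186 counts in MeWo stood against 51 in A101D, a ratio of 43.0 with an exact 95% interval of 32.6 to 58.0 that covers counting error only. The ratio was 73.2 within replicates 1 to 4 and 33.9 within replicates 5 to 8. CDKN1C rose between the sets by 1.43 ± 0.42 in A101D (limma adjusted p = 0.00294), where it rests on 39 against 12 counts, and by 0.43 ± 0.08 in MeWo (limma adjusted p = 0.00034). The MeWo call was lost with limma-trend (adjusted p = 0.115). KCNQ1OT1, the noncoding RNA of the same imprinted domain, was higher in MeWo by 0.46 ± 0.10 (limma adjusted p = 0.000525). Its set difference of 0.32 in A101D lay near the threshold without passing (limma adjusted p = 0.0521), with the sets apart. In MeWo it was 0.10, with overlapping sets (limma adjusted p = 0.665).

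CDKN2A (ENSG00000147889, chromosome 9, 21967753 to 21995301, minus strand) encodes p16 and, from another first exon and reading frame, ARF; counts per gene do not separate the transcripts. It had no count in any of the 8 A101D libraries. In MeWo it was at 9.33, 9.10, 9.46 and 10.01 CPM in replicates 1 to 4 and at 10.1, 9.19, 8.17 and 8.72 CPM in replicates 5 to 8, so the sets overlapped. The 2510 MeWo counts make CDKN2A at least 840-fold higher there, against a floor of 3 counts over the 8 A101D libraries; with 3 counts per library the bound is 105. Between the MeWo sets the log2 difference was -0.08, with an interval from -0.22 to 0.06 (limma adjusted p = 0.531).

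CDKN2B (ENSG00000147883, chromosome 9, 22002903 to 22009363, minus strand) encodes p15, an INK4 protein known as a target of TGF-beta signalling. It too had no count in A101D. The MeWo libraries had it at 15.01, 17.0, 15.1 and 16.1 CPM and then at 18.6, 16.03, 16.01 and 15.98 CPM, with overlapping sets. It was at least 1472-fold higher in MeWo against the same floor, from 4400 counts, and at least 184-fold with 3 counts per library. Its MeWo set difference was 0.07, with an interval from -0.04 to 0.19 (limma adjusted p = 0.472).

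The missing counts extended past both genes. MTAP, the neighbour that encodes the methionine salvage enzyme methylthioadenosine phosphorylase, had 6 counts over the A101D libraries and 20817 over the MeWo libraries. CDKN2B-AS1, a noncoding gene that overlaps CDKN2A and CDKN2B on the other strand, had 49 counts in A101D and 993 in MeWo. Of the 14 annotated genes from the start of MTAP to the end of CDKN2B-AS1, 12 had no A101D count and 8 of these had MeWo counts, and the stretch summed to 55 counts in A101D and 29669 in MeWo. Outside it, within 3000000 bases of CDKN2A, the 12 genes with at least 100 MeWo counts each had at least 93 counts in A101D. KLHL9, on the side of MTAP, had 16644 counts in A101D and 12989 in MeWo, and DMRTA1, on the other side, had 1468 and 59. DNA copy number was not measured in these libraries. The 49 A101D counts of CDKN2B-AS1 were 4 in replicates 1 to 4 and 45 in replicates 5 to 8. Their ratio was 10.1, with an exact interval of 3.67 to 38.5 for counting error. This rise was not particular to CDKN2B-AS1. ENSG00000236921, a noncoding gene past its end, had 29 and 422 counts in the same A101D sets and 34 in MeWo.

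**Figure D2:**
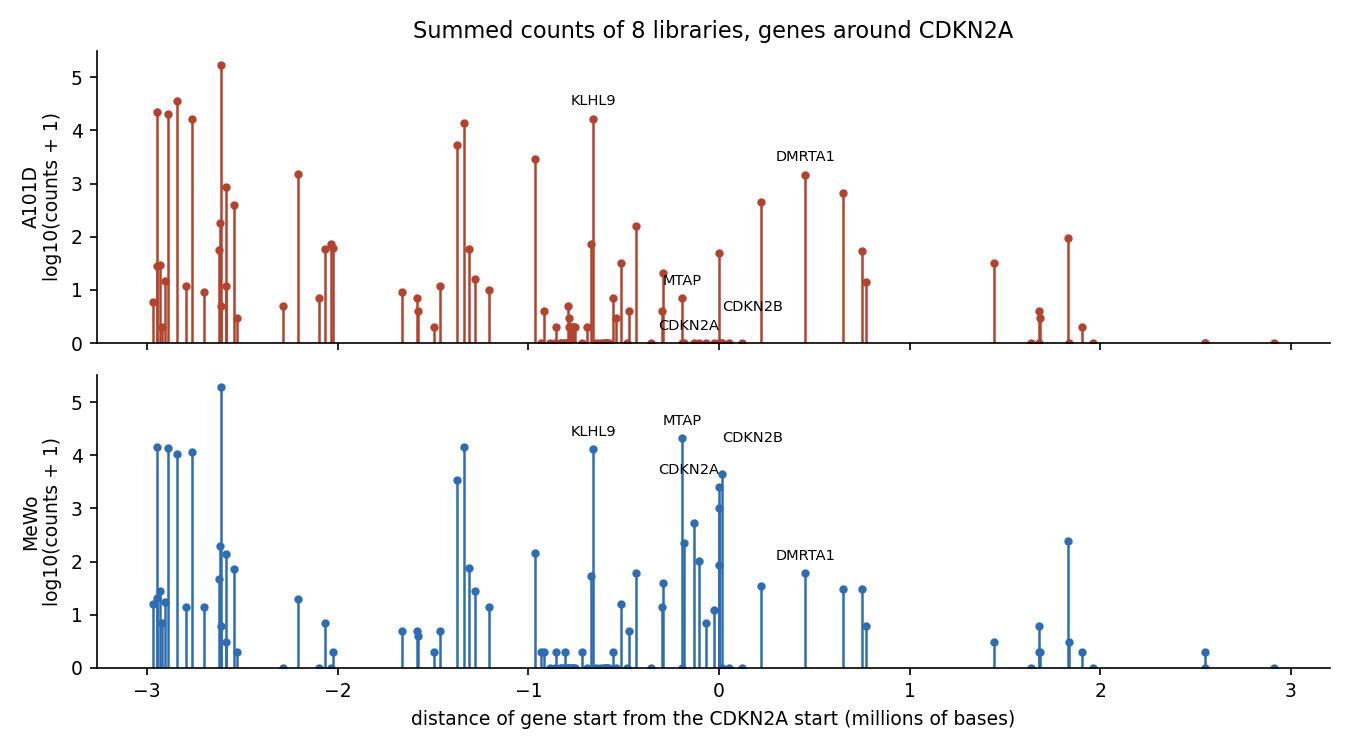
Summed counts over 8 libraries of A101D (top, red) and of MeWo (bottom, blue) for 105 annotated genes, as log10(counts + 1), against the distance of each gene's start from the CDKN2A start. CDKN2A and CDKN2B are at 0 in A101D and MTAP has 6 counts there, while KLHL9 and DMRTA1 on either side have 16644 and 1468.

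CDKN2C (ENSG00000123080, chromosome 1, 50960745 to 50974633, plus strand) encodes p18, an INK4 inhibitor of CDK4 and CDK6. In A101D it was at 34.1, 31.8, 33.2 and 33.5 CPM in replicates 1 to 4 and at 11.4, 12.5, 11.4 and 11.6 CPM in replicates 5 to 8. MeWo libraries had 29.4, 29.1, 28.8 and 25.4 CPM and then at 28.2, 26.0, 26.6 and 26.8 CPM. MeWo lay between the A101D sets: all its libraries were below A101D replicates 1 to 4 and above A101D replicates 5 to 8. CDKN2C fell between the A101D sets by 1.50 ± 0.06 on the log2 scale (limma adjusted p = 7.81e-25), and the MeWo set difference was -0.06, with an interval from -0.16 to 0.04 (limma adjusted p = 0.459). MeWo against A101D was therefore -0.24 ± 0.05 in replicates 1 to 4 (limma adjusted p = 3.73e-05) and 1.19 ± 0.06 in replicates 5 to 8 (limma adjusted p = 6.94e-22), and the pooled 0.50 ± 0.25 did not pass (limma adjusted p = 0.0814). With upper-quartile factors, which moved the median difference of all genes from -0.02 to 0.48, the value in replicates 1 to 4 turned to 0.26, so its direction rests on the scaling. The mean of both within-set differences was 0.48 ± 0.04 and passed (limma adjusted p = 7.94e-15), as did the pooled value with sample quality weights, at 1.08.

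CDKN2D (ENSG00000129355, chromosome 19, 10566462 to 10569059, minus strand) encodes p19, the other INK4 member. In A101D it was at 8.16, 8.46, 7.19 and 7.97 CPM and then at 9.25, 9.70, 9.33 and 8.44 CPM. MeWo libraries stood at 16.5, 18.5, 16.8 and 15.4 CPM and then at 18.7, 17.3, 17.5 and 17.9 CPM. The lines were apart and the sets of either line overlapped. CDKN2D was higher in MeWo by 1.01 ± 0.06 on the log2 scale (limma adjusted p = 7.37e-11), by 1.07 ± 0.07 in replicates 1 to 4 and by 0.96 ± 0.07 in replicates 5 to 8. Its rise of 0.20 ± 0.08 between the A101D sets (limma adjusted p = 0.0236) did not pass without A101D replicate 3 (0.16, limma adjusted p = 0.09) or replicate 6 (0.17, limma adjusted p = 0.0789), without the low-count filter (limma adjusted p = 0.0744) or with upper-quartile factors (0.17, limma adjusted p = 0.0796). With TMM factors computed over the genes tested alone, an alternative added after the calls were seen, it passed.

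Of the 5 members with counts in A101D, all passed between its sets, 3 higher and 2 lower in replicates 5 to 8, and 67.9% of all genes passed there, 29.0% higher and 38.9% lower. The sets did not overlap for 4 of these 5 and for 62.6% of all genes. In MeWo 2 of the 7 passed, CDKN1C higher and CDKN1A lower, beside 15.1% of all genes (5.35% higher and 9.74% lower), and the sets of the same 2 did not overlap, beside 15.5% of all genes. The set difference itself differed between the lines for CDKN1A, by -1.07 ± 0.07 (MeWo minus A101D, log2; limma adjusted p = 6.9e-17), for CDKN1B, by 0.39 ± 0.07 (limma adjusted p = 4.81e-06), and for CDKN2C, by 1.43 ± 0.08 (limma adjusted p = 1.76e-19). That is 3 of the 5, beside 52.1% of all genes (30.6% higher and 21.5% lower). CDKN1C, at -0.99 ± 0.43, lay at the threshold without passing (limma adjusted p = 0.0502), and it passed or missed with small changes in the processing. CDKN2D, at -0.11 ± 0.10, did not pass (limma adjusted p = 0.358).

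**Figure D3:**
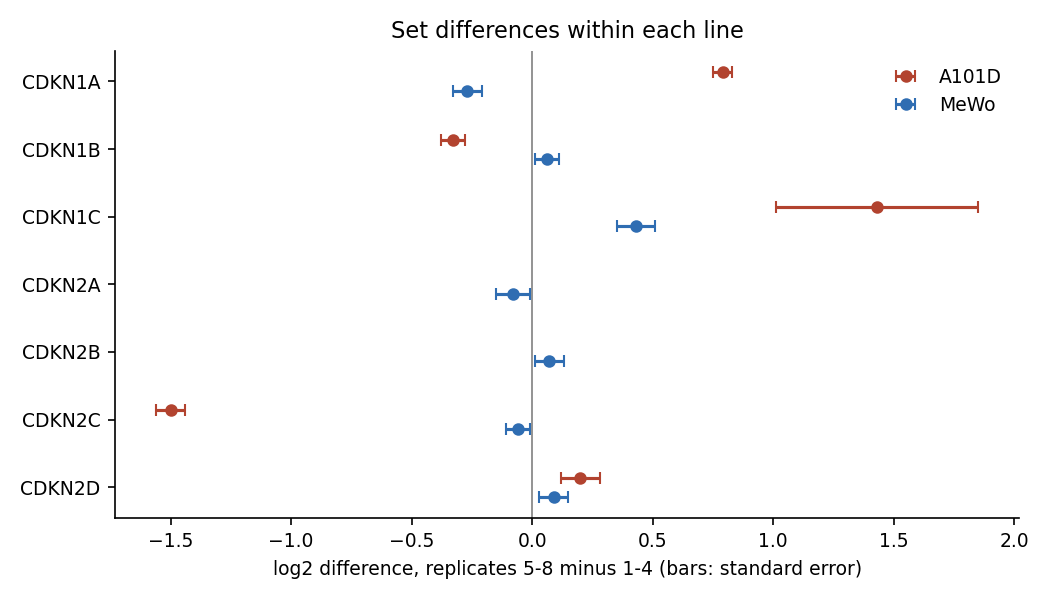
Fitted log2 difference of replicates 5 to 8 minus replicates 1 to 4 for each CDK inhibitor, in A101D (red) and MeWo (blue), with bars for the standard error; CDKN2A and CDKN2B have no A101D value because they had no counts. A101D values run from -1.50 for CDKN2C to 1.43 for CDKN1C, and MeWo values from -0.27 for CDKN1A to 0.43 for CDKN1C.

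Divided by exon length, the levels of the members can be set beside each other. In A101D the order in CPM per kilobase of exon was CDKN1A at 175, CDKN1B at 12.8, CDKN2C at 6.76, CDKN2D at 5.70 and CDKN1C at 0.0737. The places of CDKN2C and CDKN2D turned between the sets: CDKN2C was above CDKN2D in replicates 1 to 4, at 9.99 against 5.29, and below it in replicates 5 to 8, at 3.54 against 6.11, with no overlap in either set. The MeWo order was CDKN1B at 17.6, CDKN2D at 11.5, CDKN2C at 8.30, CDKN1A at 5.38, CDKN2B at 4.00, CDKN1C at 3.23 and CDKN2A at 2.14. There CDKN1A overlapped CDKN2B, and CDKN2B overlapped CDKN1C. CDKN1A made up 81.3% of the summed level in A101D replicates 1 to 4 and 91.3% in replicates 5 to 8, against 11.4% and 9.23% in MeWo. The place of CDKN2A depends on the length used: with its longest transcript in place of all exons its MeWo level was 7.21 CPM per kilobase.

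**Figure D4:**
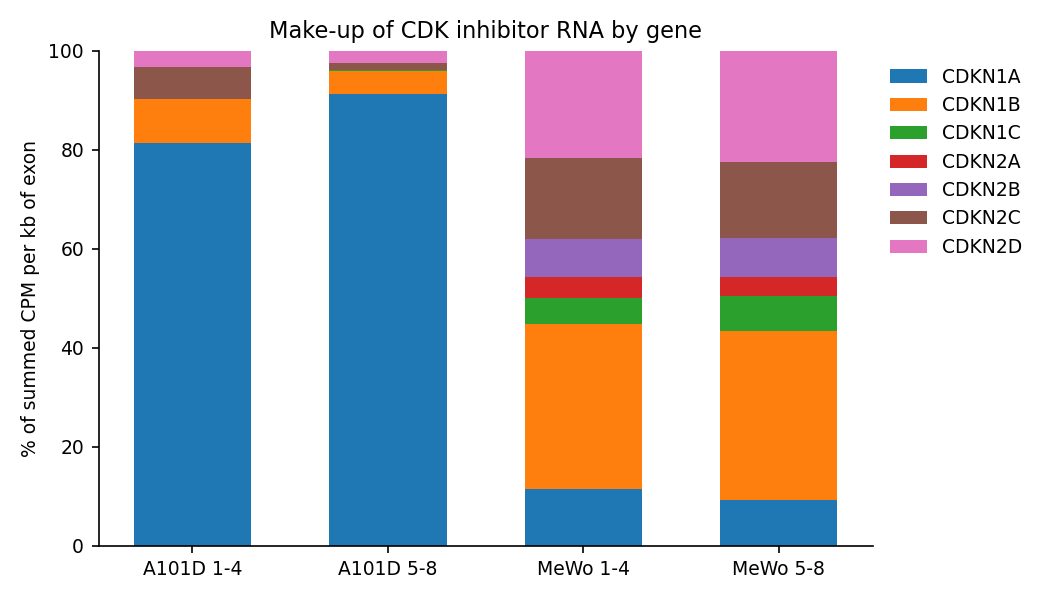
Share of each CDK inhibitor in the summed level of the 7 genes, in percent of CPM per kilobase of exon, for the means of 4 libraries in each line and replicate set. CDKN1A is 81.3% and 91.3% of the A101D bars, and no gene exceeds 34.2% of a MeWo bar.

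The targets of the inhibitors and the genes around them were read from lists chosen with earlier results of these data known. CCNA2 is in both the list of cyclins and CDKs and that of proliferation genes, so the lists are not independent of each other. The counts below stand beside 29.0% higher and 38.9% lower of all genes tested between the A101D sets, and 5.35% and 9.74% between the MeWo sets. Of 14 cyclins and CDKs tested, 13 were lower and 1 higher in A101D replicates 5 to 8, with a median log2 difference of -1.25 beside -0.08 over all genes tested; in MeWo 5 were lower and none higher. Cyclin E2 (CCNE2), a partner of CDK2, fell in A101D from 10.4 to 0.756 CPM on average, by 3.77 ± 0.17 on the log2 scale (limma adjusted p = 3.76e-23). Of the 12 RB and E2F family genes, 11 were lower and 1 higher in A101D replicates 5 to 8, and 4 lower and none higher in MeWo. Among those lower in A101D were E2F1, which fell by 2.44 ± 0.05 (limma adjusted p = 3.88e-34), and RB1, which fell by 0.78 ± 0.05 (limma adjusted p = 2.11e-15). In MeWo E2F1 fell by 0.15 ± 0.04 (limma adjusted p = 0.0134), and RB1, at -0.14, did not pass (limma adjusted p = 0.0559). All 20 proliferation genes fell between the A101D sets, with a median of -2.05; their summed level was 2363 to 2460 CPM in replicates 1 to 4 and 571 to 606 CPM in replicates 5 to 8. In MeWo 11 of the 20 fell, beside 9.74% of all genes, with a median of -0.15 and sums of 3363 to 3656 and 3237 to 3419 CPM.

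The kinases that INK4 proteins bind differed between the lines in different directions. CDK6 was lower in MeWo, at 148 against 416 CPM, by 1.47 ± 0.11 on the log2 scale (limma adjusted p = 9.5e-10). CDK4 was at 133 CPM in MeWo and 118 CPM in A101D, a log2 difference of 0.19 ± 0.08 (limma adjusted p = 0.0477), and in replicates 1 to 4 it was -0.02 (limma adjusted p = 0.623). Cyclin D1 (CCND1) was higher in MeWo by 0.40 ± 0.06 (limma adjusted p = 6.07e-06).

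Of 25 regulators of the inhibitors' own genes tested, 10 were higher and 12 lower in A101D replicates 5 to 8, beside 29.0% and 38.9% of all genes, with a median of -0.11 beside -0.08. In MeWo none was higher and 5 were lower, beside 5.35% and 9.74%. EZH2, the methyltransferase of the Polycomb complex known to silence CDKN2A, fell in A101D by 1.83 ± 0.04 (limma adjusted p = 2.94e-32), while BMI1, of the other Polycomb complex, rose by 0.51 ± 0.05 (limma adjusted p = 1.42e-11). In MeWo EZH2 also fell, by 0.26 ± 0.04 (limma adjusted p = 5.7e-05), and BMI1, at 0.06, did not pass (limma adjusted p = 0.421). MYC was higher in MeWo, at 176 against 23.3 CPM, by 3.01 ± 0.17 (limma adjusted p = 2.28e-11). Of the 14 genes for turnover of the inhibitor proteins, 11 were lower and 1 higher in A101D replicates 5 to 8, with a median of -0.26, beside the same shares, and 5 were lower and none higher in MeWo. SKP2, which marks p27 for degradation, fell between the MeWo sets by 0.19 ± 0.05 (limma adjusted p = 0.0109). Between the A101D sets it fell from 88.6 to 30.9 CPM, by 1.52 ± 0.05 (limma adjusted p = 4.32e-27). CDKN1B RNA was also lower in A101D replicates 5 to 8.

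The genes whose pattern over the 16 libraries was most like each member were found by the root mean square difference of log2 levels centred on their means, as a description with no test. CDKN2C was nearest to TFDP1, at 0.068, then to UNG and TTLL12. CDKN1A was nearest to PDE1C, at 0.148, then to C4orf19 and KIAA0040. CDKN1B was nearest to PDXDC1, at 0.060, and CDKN2D to CFDP1, at 0.061. CDKN1C was nearest to TSHZ3, at 0.353, CDKN2A to ADRA2C, at 0.192, and CDKN2B to MORC1, at 0.195. The root mean square of each member about its own mean was 2.506 for CDKN1A, 2.633 for CDKN1C, 3.653 for CDKN2A and 4.056 for CDKN2B. It was 0.271 for CDKN1B, 0.583 for CDKN2C and 0.519 for CDKN2D, so distances of different members cannot be ranked together. With a smaller prior count the nearest gene changed for CDKN1C, to LINC01606, and for CDKN2A, to MORC1.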

How the data were processed

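The authors deposited 1 table of counts per gene for each line, with each cell joining an Ensembl identifier and a whole-number count, so that other deposited unit was split into its parts before use. Reads were trimmed with Trimmomatic 0.39-1, aligned with STAR 2.7.1a to GRCh38 and counted with featureCounts 2.0.0, per the submitters' processing notes; what annotation release and which strand option were used is not given in the sources used here. Positions are from GENCODE v29, which held 96.4% of identifiers.

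TMM factors (trims of 30% and 5%) were computed over all genes with a count. A gene was tested with at least 0.298 CPM in 8 libraries and 15 counts in all. Tests used limma 3.58.1 (R 4.3.3): voom weighting, then moderation by robust empirical Bayes, two-sided, with Benjamini-Hochberg adjustment over 19247 genes and a threshold of 0.05. The line was fitted over 16 libraries in 2 groups, with no term for the set, and the sets in 4 groups. The edgeR test was not used, because the joined cells did not pass as counts.

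TMM factors over the genes tested were tried after the calls were known. They gave smaller adjusted p-values for CDKN1C (difference of set differences, which then passed) and CDKN2D (A101D sets), so they were not made the main fit and were kept as an added alternative, as were upper-quartile factors over those genes. When a library was left out, the filter asked for 7 libraries where a line had 7 left, a correction to the planned 8. Also tried were factors by upper quartile or median of ratios, total counts, no filter, a filter at 1 CPM, limma-trend, sample quality weights, a threshold of 0.01, a replicate block and leaving out each library; between the lines over all 16 libraries only MeWo replicate 2 was left out.

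The members, lists and sets were chosen with earlier results of these data known. Genes named are the members, 14 fixed genes, up to 3 per list and comparison by size of change with at least 10 CPM, and the 3 most alike to a member, with genes on chromosome Y or without a symbol left out. DINOL, KLHL9, DMRTA1, ENSG00000236921, LUM and VWF were named after their values were seen. Some of the fixed genes and a gene list are not reported here. On simulated counts with 200 changed genes, the line comparison recovered 100% of log2 changes of 1 and 85% of 0.5. The A101D set comparison recovered 98% and 36%, and the difference of set differences 82% and 11%. The simulated counts had the same spread beyond sampling noise for every gene. These rates are for those counts only, and whether their spread was like that of these libraries was not tested. They give no rate for the members. Between the A101D sets of these libraries, 67.9% of all genes passed. Of pairs of libraries in a set, none agreed within sampling noise (chi-square per degree of freedom at least 1.967).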

Additional observations from a re-analysis of the deposited data

Results flagged for a closer look

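In MeWo replicates 5 to 8, CDKN2B was highest in replicate 5, at 18.6 CPM (574 counts) against 15.98 to 16.03 CPM in the others; the gap was 0.980 of the group's range, above the Dixon critical value of 0.829 for 4 libraries. In MeWo replicates 1 to 4, CDKN2C was lowest in replicate 4, at 25.4 CPM (869 counts) against 28.8 to 29.4 CPM, with a gap of 0.855 of the range. Of 36 groups of member values checked, chance flags about 1.8.

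The difference between replicate sets was not the same in both lines for CDKN1A (-1.07, MeWo minus A101D, on the log2 scale), CDKN1B (0.39) and CDKN2C (1.43), by the interaction term in limma. CDKN1A rose in A101D and fell in MeWo, while CDKN1B and CDKN2C fell in A101D and did not pass the test in MeWo.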

How the results depend on the processing

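Of 916 recalculated member differences, 892 kept their direction and side of the threshold, 1 reversed, 16 came to pass and 7 no longer passed. Many of the 916 were refits without 1 library, among them libraries of the line that a set difference did not compare. The reversal was CDKN2C between the lines in replicates 1 to 4 with upper-quartile factors (0.26), which left 1 member lower there; these factors moved the median of all genes by about 0.5 (to 0.48, 0.44 and 0.50 over all libraries and by set), and the higher and lower calls between the lines from 7353 and 7802 to 11221 and 4955. Between the MeWo sets, total counts gave 2 members higher, no filter gave 1 member past the threshold and 0 lower, and limma-trend gave 1 past it and 0 higher; all genes past it numbered 1892 without the filter and 1546 at 0.01, against 2903. The all-gene MeWo split of 1029 higher and 1874 lower became 2077 and 1038 with total counts, 643 and 2716 with upper-quartile factors, 1401 and 1601 with TMM factors over the genes tested and 1580 and 1475 with upper-quartile factors over them. The A101D split of 5581 and 7494 became 7610 and 5584 with total counts and 7212 and 5944 with upper-quartile factors over the genes tested, and that of the difference of set differences, 5896 and 4140, became 4812 and 5331 and 4899 and 5277. For the difference of set differences, 2 members were lower with median-of-ratios factors, upper-quartile factors, the filter at 1 CPM and limma-trend, and with both alternatives added after the calls were seen; total counts gave 5 past the threshold and 3 lower. The second member was CDKN1C, with an adjusted p of 0.0502 in the reported fit, 0.0459 with TMM factors over the genes tested and 0.0186 to 0.0466 under the other settings named. Leaving out 1 library gave 3 to 4 members past the threshold for it and 1 to 2 lower: without A101D replicate 4 or 8 or MeWo replicate 1 or 8, CDKN1C passed.

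Correlations of same-numbered A101D and MeWo libraries ran from 0.0514 to 0.176 in deviations from the line means. In deviations from the line and set means they ran from -0.030 to 0.093, and 3 of 8 libraries matched their own number best. Such correlations cannot tell whether same-numbered libraries were handled together. With the replicate block, CDKN1A between the lines was -5.00 and no member's call changed; all genes past the threshold numbered 15291 against 15155. No paired analysis was possible within a line because its sets hold different numbers. With a floor of 3 counts per library, the lower bounds for CDKN2A and CDKN2B were 105 and 184. Depth limits CDKN1C in A101D, with 51 counts in all.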
